A study of Mus musculus with 11 samples.

Results

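β-Actin, the product of Actb, is best known as a cytoskeletal protein, but in the nucleus it is a stable subunit of several chromatin remodelling complexes. The genes examined here are 51 subunits of 4 such complexes, picked by symbol from the 46469 gene symbols of the expression tables: 25 of BAF, 11 of INO80, 2 of SRCAP, 8 of TIP60, 3 shared by SRCAP and TIP60, and 2 shared by INO80, SRCAP and TIP60. Each symbol corresponded to 1 locus. The question was how the RNA of these subunits compared between mouse embryonic fibroblasts with both, 1 or neither copy of Actb. They were derived from BALB/c embryos of 10.5 days whose genotype was Actb +/+ (WT, 4 libraries), Actb +/- (Het, 4 libraries) or Actb -/- (KO, 3 libraries, numbered 1, 3 and 4). A further KO library, which the submitters dropped after quality control, was not analysed here. All cells were grown in DMEM with serum and lysed in TRI Reagent at 70% confluence, and poly(A) RNA was turned into stranded TruSeq libraries. The replicates are described as biological, without a statement that they were separate embryos or cultures. A p-value here is a measure of the spread between these libraries only, some of which may be technical. How the Actb alleles were made was not given in the sources used here.

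Chromatin remodellers use ATP to slide, eject or exchange nucleosomes. In BAF, INO80, SRCAP and TIP60, actin sits with an actin-related protein on a helical domain of the catalytic subunit, where the pair helps to couple ATP hydrolysis to movement along DNA. BAF, also called SWI/SNF, opens enhancers and promoters, and its subunits are swapped between paralogues during development. INO80 acts on nucleosomes that hold the histone variant H2A.Z, which SRCAP and TIP60 deposit, and TIP60 also acetylates histones.

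The targeted gene followed the labels. Actb measured 1081, 1434, 1253 and 1532 FPKM in the WT libraries, 872, 832, 818 and 826 in the Het libraries and 45.0, 45.1 and 47.3 in the KO libraries. FPKM are fragment counts adjusted for the length of the transcript and the size of the library. The libraries are listed throughout in the order WT 1 to 4, Het 1 to 4 and KO 1, 3 and 4. KO cells retained 3.46% and Het cells 63.2% of the WT mean. FPKM carry no read depth; from the smallest steps between low values, depth relative to WT 1 ran from 60.7% in WT 3 to 125% in WT 4. From 13885 to 14202 genes reached 1 FPKM. Of 10 fibroblast markers, 9 rose in KO against WT. In Het against WT 8 rose and 1, Twist1, fell, and in KO against Het 5 rose and 3 fell. The sum of the list ran from 1490 to 1942 FPKM in WT, 2374 to 2689 in Het and 3618 to 4267 in KO. It hides the 3 markers that fell in KO against Het, which were highest in Het. Col1a2 averaged 6.86, 193 and 11.5 FPKM in WT, Het and KO. Prrx1 averaged 11.5, 61.6 and 29.7, and Pdgfra 0.212, 4.33 and 0.96. The fibroblast surface markers Thy1 and Pdgfra were near 0 in WT, at 0.0248 and 0.212 FPKM. Markers of other cell types moved as well. Most were low, but Tubb3 averaged 24.6 and Stmn2 16.3 FPKM in Het, and Map2 10.6 FPKM in KO. Of 7 neuronal markers, 3 were tested: in KO against WT Map2 rose and Stmn2 fell, and in Het against WT Tubb3 and Stmn2 rose and Map2 fell. Their list summed to 20.1 to 27.5 FPKM in WT, 39.3 to 45.8 in Het and 25.5 to 27.5 in KO, with Rbfox3, Snap25 and Nefl at most 0.0798 FPKM. Of 5 epithelial markers, only Krt18 was tested; it fell in KO and rose in Het, and the list summed to 1.93 to 2.65, 5.36 to 9.12 and 0.756 to 0.835 FPKM in WT, Het and KO. Of 6 muscle markers, only Des was tested and rose in both genotypes; the sums were 0.423 to 0.585, 0.948 to 1.54 and 0.896 to 1.42 FPKM, with Myod1 and Myog listed at 0 in all 11 libraries. Of 5 blood markers, only Cd68 was tested and did not pass (sums of 1.29 to 2.68, 1.14 to 1.99 and 2.02 to 4.47 FPKM), and Ptprc, Emr1 and Hbb-bs were listed at 0 throughout. The 4 endothelial markers summed to at most 0.534 FPKM in any library. Of 10 genes of dividing cells, 8 fell in KO against WT and 2 fell in Het against WT. Their sum was 1073 to 1159 FPKM in WT, 949 to 999.5 in Het and 872 to 893 in KO, and it moved in the same direction as the subunits that fell. The part of these marker differences in the results on the subunits was not tested. In bulk RNA, fewer cells of a type and less RNA per cell cannot be told apart.

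Nearly all subunits were expressed, and their differences between genotypes were modest. Of the 51 genes, 49 reached 1 FPKM in at least 3 libraries and were tested. Dpf3, a BAF subunit of heart and muscle, and Actl6b, the neuronal actin-related protein of BAF, stayed at or below 0.103 FPKM in every library. Against WT, 7 of the 49 rose in KO and 17 fell. Together that is 49.0%, while 47.1% of all 14948 genes tested passed the same threshold, an adjusted p of 0.05 with limma, 23.3% of them as higher and 23.8% as lower. In Het against WT, 6 rose and 12 fell (36.7%, with 43.8% of all genes, 21.7% higher and 22.1% lower), and in KO against Het 10 rose and 14 fell (49.0%, with 44.2% of all genes, 22.0% higher and 22.2% lower). Counted in either direction, the shares were thus near the background of the whole transcriptome. By direction they were less even than the background. More subunits fell than rose in each comparison, with 17 and 7 in KO against WT, where 23.8% and 23.3% of all genes did so. Whether this split differs from that of all genes was not tested. In KO against WT, 9 subunits lay above WT in every KO library and 16 below in every one (22.8% and 23.6% of all genes); in Het against WT these were 6 and 11 (19.4% and 20.0%), and in KO against Het 14 and 17 (27.2% and 26.7%). These 3 comparisons share libraries, so they are given side by side and are not independent of each other. No subunit passed the threshold with a difference of 2-fold or more. The median difference, on the log2(FPKM + 1) scale, was -0.10 in KO against WT, where all genes had 0.01. That scale understates the change of genes with few FPKM. The median size of the difference without its sign was 0.22, below the 0.29 of all genes.

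**Figure D1:**
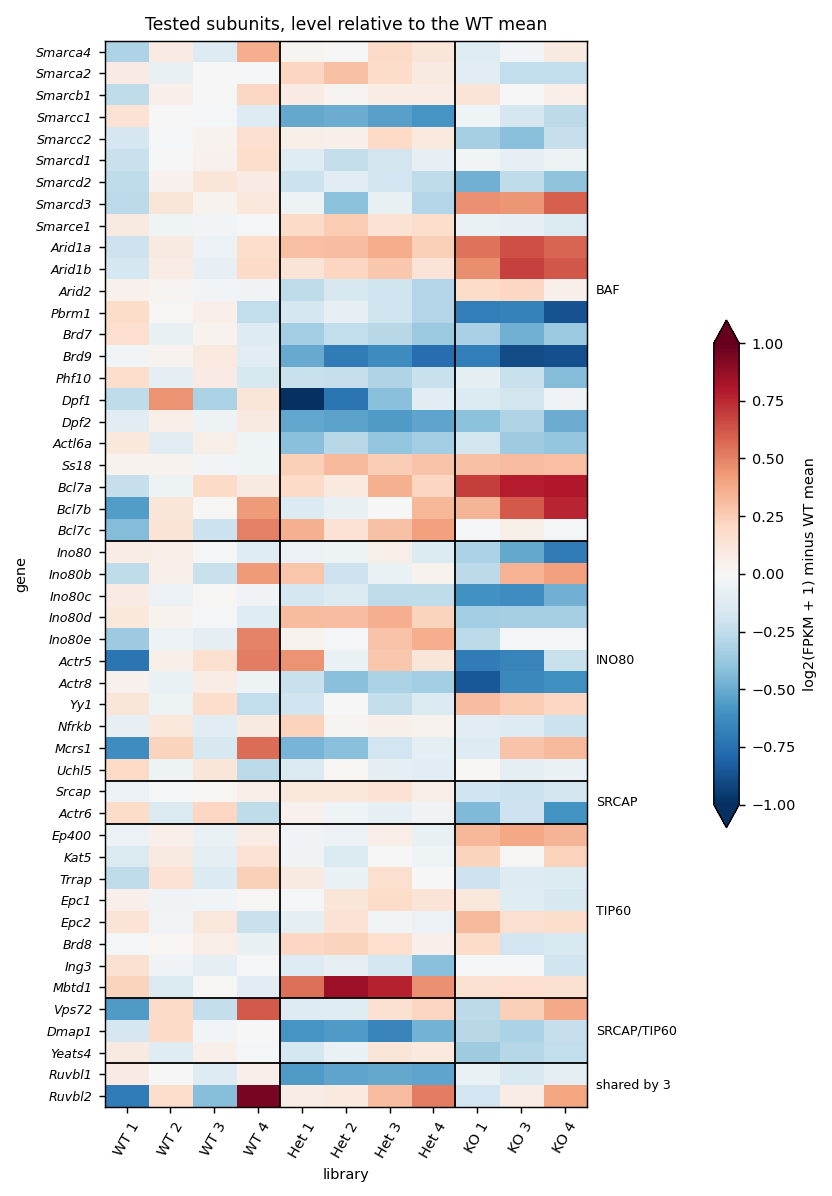
Colours show the level of each tested subunit (rows, grouped by complex) in each of the 11 libraries (columns, grouped by genotype), as log2(FPKM + 1) minus the mean of the WT libraries. In the KO columns Brd9, Pbrm1 and Actr8 are blue (lower) and Bcl7a and Arid1a are red (higher), Ruvbl1 is blue in Het alone, and Ruvbl2 runs from blue to red within WT.

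By complex, the counts stood on both sides of the background. In KO against WT, 6 of the 23 tested BAF subunits rose and 9 fell (65.2%), and of the 26 tested subunits of INO80, SRCAP and TIP60, 1 rose and 8 fell (34.6%), with 47.1% of all genes called. In Het against WT, 4 BAF subunits rose and 8 fell (52.2%), and 2 of the others rose and 4 fell (23.1%), with 43.8% of all genes. In KO against Het the order was the opposite, with 6 and 4 for BAF (43.5%) and 4 and 10 for the others (53.8%), where all genes had 44.2%. Whether the complexes differ in these shares was not tested. The FPKM of the BAF subunits added up to 711 to 747 in WT, 663 to 672 in Het and 641 to 667 in KO, with WT above both other genotypes. For INO80, SRCAP and TIP60 the sums overlapped, at 512 to 613 in WT, 506 to 537 in Het and 512 to 547 in KO.

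**Figure D2:**
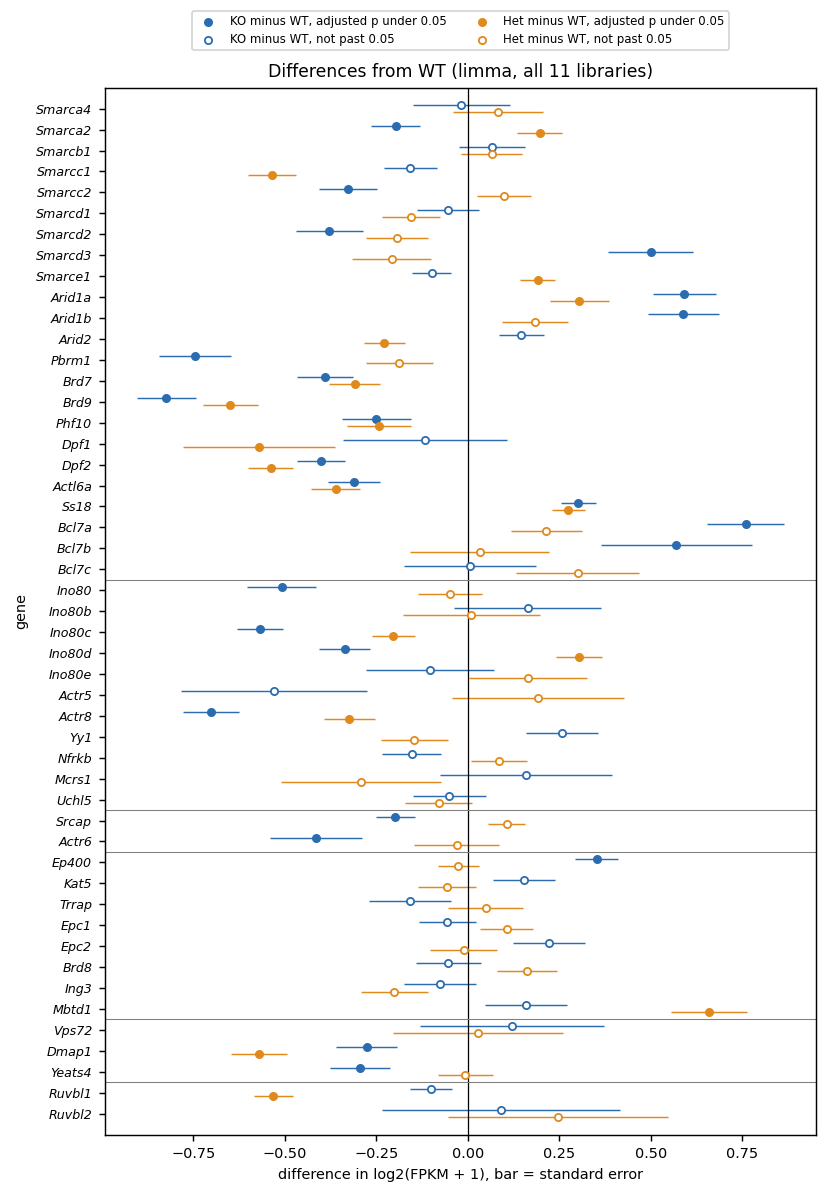
Points show the difference of each tested subunit from WT in KO (blue) and Het (orange), on the log2(FPKM + 1) scale, with bars of 1 standard error, and filled points passed the adjusted p of 0.05 (limma, all genes). In KO against WT the points run from -0.82 for Brd9 to 0.76 for Bcl7a, and in Het against WT from -0.65 for Brd9 to 0.66 for Mbtd1.

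The start regions of 5 subunits are shown because their RNA followed 4 different courses over the genotypes. Brd9 was lower in both mutant genotypes, Arid1a rose from WT through Het to KO, Ruvbl1 and Dmap1 were lowest in Het, and Mbtd1 was highest in Het. Each sequence covers 250 bases before and 50 after the annotated start, 5′ to 3′ on the strand of the gene, from RefSeq on GRCm38.p6. Brd9 lies at chr13:73937578-73937877 on the + strand, Arid1a at chr4:133753936-133754235 on the - strand, Ruvbl1 at chr6:88465159-88465458 on the + strand, Dmap1 at chr4:117682176-117682475 on the - strand and Mbtd1 at chr11:93885600-93885899 on the + strand. For Brd9, Arid1a and Mbtd1, which have 2 annotated starts, the one nearest to the 5′ end of the quantified locus is shown; the 5 starts lie 0 to 96 bases from that end. Capitals mark matches to the motifs searched on both strands: CCGGAAG, the site of ETS factors, in Brd9, Dmap1 and Mbtd1, and CCAAT and TATAAA in Ruvbl1, the TATAAA on the opposite strand. The Arid1a window shown held no match to these or to GCCATNTT, the site of YY1. The window of the other annotated Arid1a start, not shown, did hold GCCATNTT.
Brd9: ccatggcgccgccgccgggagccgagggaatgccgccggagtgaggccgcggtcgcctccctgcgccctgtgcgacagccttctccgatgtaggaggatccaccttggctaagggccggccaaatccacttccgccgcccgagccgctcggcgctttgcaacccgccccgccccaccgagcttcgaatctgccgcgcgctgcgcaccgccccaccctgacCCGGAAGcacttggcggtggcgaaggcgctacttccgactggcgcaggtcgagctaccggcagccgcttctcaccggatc
Arid1a: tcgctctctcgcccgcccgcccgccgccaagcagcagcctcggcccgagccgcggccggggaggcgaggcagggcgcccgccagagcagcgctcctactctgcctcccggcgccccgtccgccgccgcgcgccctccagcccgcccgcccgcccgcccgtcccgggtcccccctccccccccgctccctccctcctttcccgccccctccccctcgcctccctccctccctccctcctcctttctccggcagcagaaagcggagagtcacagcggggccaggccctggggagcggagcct
Ruvbl1: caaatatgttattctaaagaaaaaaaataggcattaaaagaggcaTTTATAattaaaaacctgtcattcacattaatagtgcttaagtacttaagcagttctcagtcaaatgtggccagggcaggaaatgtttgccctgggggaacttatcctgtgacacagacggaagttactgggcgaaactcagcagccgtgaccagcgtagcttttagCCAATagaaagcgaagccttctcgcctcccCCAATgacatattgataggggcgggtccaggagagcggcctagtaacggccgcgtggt
Dmap1: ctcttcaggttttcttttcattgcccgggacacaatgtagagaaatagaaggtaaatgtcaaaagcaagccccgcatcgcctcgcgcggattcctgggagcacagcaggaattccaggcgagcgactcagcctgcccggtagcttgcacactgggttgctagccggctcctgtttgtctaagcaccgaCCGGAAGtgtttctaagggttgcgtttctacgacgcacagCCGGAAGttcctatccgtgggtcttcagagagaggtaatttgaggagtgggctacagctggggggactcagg
Mbtd1: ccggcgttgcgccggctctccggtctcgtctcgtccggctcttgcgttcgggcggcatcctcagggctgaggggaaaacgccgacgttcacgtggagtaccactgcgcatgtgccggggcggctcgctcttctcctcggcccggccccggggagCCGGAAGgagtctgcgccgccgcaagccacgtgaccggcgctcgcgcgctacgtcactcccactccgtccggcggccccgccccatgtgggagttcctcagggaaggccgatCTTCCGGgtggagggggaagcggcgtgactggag
RefSeq start regions were matched for 40 of the 51 subunits, as 47 windows. The background of 32851 windows was not limited to genes expressed here, while nearly all subunits were expressed. CCGGAAG was in 11 of the 47 windows (23.4%) and in 8.86% of all 32851 windows, and GCCATNTT was in 6 (12.77%) and in 6.05%. CCAAT was in 15 (31.91%) and in 37.41% of all, and TATAAA in 2 (4.26%) and in 13.62%. The CArG box, bound by the actin-responsive factor SRF, was in none of the 47 and in 1.63% of all windows. The windows of the subunits were richer in CpG than the rest, with a median of 29 CpG and 65.7% G + C, while all windows had medians of 7 and 52.7%. None of the marked matches overlaps another, and a match describes the letters and not a bound site.

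The actin-related proteins share the fold of actin. Of the 4 tested, 3 fell in KO against WT and none rose, where 23.8% of all genes fell; 1 of these calls, that of Actr6, depends on single libraries. Actl6a, present in all 4 complexes, measured 69.2, 59.3, 67.0 and 62.5 FPKM in the WT libraries, 47.9, 52.8, 48.7 and 50.3 in the Het libraries and 56.5, 50.2 and 48.7 in the KO libraries. All Het and KO values lay below all WT values. The difference was -0.31 (95% interval -0.47 to -0.15, adjusted p = 0.00432) in KO and -0.36 (adjusted p = 0.00123) in Het, both against WT. Actr8, which sits beside actin in INO80, measured 21.4, 19.7, 21.8 and 19.9 FPKM in the WT libraries, 17.6, 15.2, 16.4 and 16.1 in the Het libraries and 11, 12.9 and 13.1 in the KO libraries. Its 3 genotypes did not overlap, with KO lowest: it fell by 0.70 in KO (adjusted p = 2.31e-05) and by 0.32 in Het (adjusted p = 0.00332) against WT, and KO was also below Het (difference -0.38, adjusted p = 0.00189). A microRNA locus inside Actr8, Mir6947, averaged 37.4 FPKM in WT and was listed at 0 in Het and KO; whether counting used strand is not given in the sources used here.

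Actr6, the actin-related protein of SRCAP, measured 16.1, 12.7, 16.4 and 11.6 FPKM in the WT libraries, 14.5, 13.6, 13.2 and 13.7 in the Het libraries and 10.1, 12.1 and 8.97 in the KO libraries. KO 3 overlapped the WT range. Its difference was -0.41 in KO against WT (adjusted p = 0.0191) and -0.38 in KO against Het (adjusted p = 0.0284). When 1 library at a time was left out of the fit, the first call was lost without WT 3, KO 1 or KO 4 (adjusted p from 0.0518 to 0.0869) and in a fit of those genotypes alone (adjusted p = 0.0569), and the second without Het 1, Het 2, Het 4, KO 1 or KO 4 (adjusted p from 0.0516 to 0.122) and with no filter on low values (adjusted p = 0.0591). Actr5, an INO80 subunit, was low and scattered, at 1.60, 3.49, 3.82 and 5.16 FPKM in the WT libraries, 4.90, 3.12, 4.18 and 3.68 in the Het libraries and 1.66, 1.72 and 2.69 in the KO libraries. WT 1 alone lay with the KO libraries. The difference between KO and WT of -0.53 missed the threshold (adjusted p = 0.110), and passed it without WT 1 (adjusted p = 0.00504). KO was below Het by 0.72 (adjusted p = 0.0388), a call lost without WT 2, Het 1, Het 3, Het 4, KO 1 or KO 3 (adjusted p from 0.0514 to 0.119) and with no filter on low values (adjusted p = 0.0908).

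The catalytic subunits moved in different directions. Smarca4, the main ATPase of BAF, passed in no comparison, with means of 54.5 ± 11.3, 57.0 ± 3.57 and 53.1 ± 3.95 FPKM in WT, Het and KO (SD, n = 4, 4 and 3). The 95% interval of the difference between KO and WT was -0.31 to 0.28. Smarca2, the alternative BAF ATPase, measured 21.1, 18.8, 19.9 and 19.7 FPKM in the WT libraries, 23.1, 24.6, 22.7 and 21.2 in the Het libraries and 18.4, 16.6 and 16.6 in the KO libraries. Het libraries were the highest and KO libraries the lowest, with no overlap between any pair of genotypes. Smarca2 rose in Het (0.20, adjusted p = 0.0246) and fell in KO (-0.20, adjusted p = 0.0312) against WT, and KO against Het differed by -0.39 (adjusted p = 6.52e-04). The rise in Het was lost without WT 2, WT 3, Het 1 or Het 2 (adjusted p from 0.0503 to 0.0727), and the fall in KO without WT 1, WT 3, KO 3 or KO 4 (adjusted p from 0.0583 to 0.113) and in a fit of those genotypes alone (adjusted p = 0.0647).

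Ino80, the ATPase of its complex, measured 9.09, 9.05, 8.50 and 7.85 FPKM in the WT libraries, 8.20, 8.26, 8.99 and 7.73 in the Het libraries and 6.71, 5.75 and 4.92 in the KO libraries. The KO values were all below the WT and Het values. It fell by 0.51 against WT (adjusted p = 0.00117) and by 0.46 against Het (adjusted p = 0.00235). Srcap, which exchanges H2A for H2A.Z, measured 13.1, 13.5, 13.9 and 14.3 FPKM in the WT libraries, 14.9, 14.9, 15.2 and 14.3 in the Het libraries and 11.8, 11.7 and 12.0 in the KO libraries. KO was lowest here as well, with differences of -0.20 from WT (adjusted p = 0.0110) and -0.30 from Het (adjusted p = 8.69e-04). The first was lost in a fit of those genotypes alone (adjusted p = 0.0539). Ep400, the ATPase of TIP60, moved the other way, at 19.9, 21.6, 19.8 and 22.0 FPKM in the WT libraries, 20.3, 19.9, 21.8 and 19.7 in the Het libraries and 26.4, 27.4 and 26.6 in the KO libraries. All KO libraries were above all others. It rose by 0.35 against WT (adjusted p = 5.81e-04) and by 0.38 against Het (adjusted p = 3.77e-04), while Het against WT differed by -0.03 (adjusted p = 0.741).

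**Figure D3:**
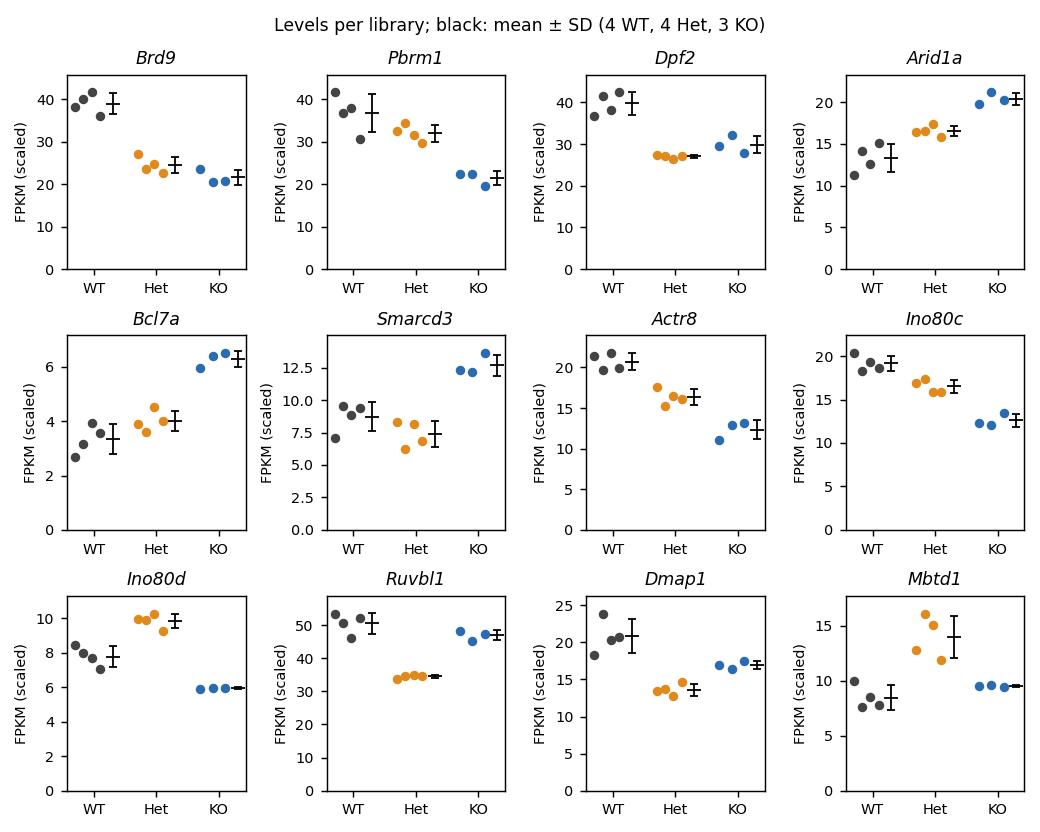
Points are FPKM per library for subunits with contrasting courses over WT, Het and KO, 1 panel per gene with a linear axis from 0, and bars give the genotype mean with its SD. Brd9 sits at 36.0 to 41.6 FPKM in WT and at 20.4 to 27.1 in the mutant genotypes, while the Het points of Ruvbl1 lie at 33.8 to 35.0 below both other genotypes.

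Among the BAF scaffold subunits, paralogues moved apart. Smarcc1, a core scaffold, measured 61.1, 55.2, 54.8 and 50.5 FPKM in the WT libraries, 38.4, 38.8, 37.7 and 36.4 in the Het libraries and 53.6, 49.1 and 46.0 in the KO libraries. Het alone was low: the difference was -0.54 from WT (adjusted p = 8.40e-05), and KO was 0.38 above Het (adjusted p = 0.00137). KO against WT differed by -0.16 (adjusted p = 0.0955), which passed without WT 4 or KO 1 (adjusted p from 0.0270 to 0.0484) and with no scaling (adjusted p = 0.00481). This difference also passed with the replicate number as a block (adjusted p = 0.0491). Its paralogue Smarcc2 measured 33.3, 37.1, 38.5 and 42.1 FPKM in the WT libraries, 39.1, 39.0, 43.2 and 40.3 in the Het libraries and 29.6, 28.0 and 31.9 in the KO libraries, and here KO alone was low, with differences of -0.33 from WT (adjusted p = 0.00614) and -0.43 from Het (adjusted p = 0.00127). Smarcc1 therefore made up 54.5% to 64.7% of the summed Smarcc FPKM in WT, 46.6% to 49.9% in Het and 59.1% to 64.4% in KO. The Het range lay below both others.

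The Smarcd family, which bridges BAF to transcription factors, shifted in KO. Smarcd3, the form known from heart and muscle, measured 7.08, 9.52, 8.88 and 9.38 FPKM in the WT libraries, 8.32, 6.27, 8.16 and 6.89 in the Het libraries and 12.3, 12.1 and 13.6 in the KO libraries. KO values were the highest, by 0.50 against WT (adjusted p = 0.00443) and 0.71 against Het (adjusted p = 5.00e-04). An overlapping locus, LOC105247055, averaged 11.8, 7.93 and 15.2 FPKM in WT, Het and KO, and its part in the result was not tested. Smarcd2 fell in KO, from 34.2 ± 3.93 FPKM in WT to 26.0 ± 2.14 (SD, n = 4 and 3), a difference of -0.38 (adjusted p = 0.00585). Smarcd1 passed in no comparison. In Het against WT, Smarcd1 (-0.16, adjusted p = 0.139), Smarcd2 (-0.19, adjusted p = 0.0889) and Smarcd3 (-0.21, adjusted p = 0.141) all missed the threshold, and each passed when WT 1 was left out, with adjusted p-values of 0.0132, 0.00564 and 0.0313. Smarcd2 in KO against Het (-0.18, adjusted p = 0.128) also passed without WT 1 (adjusted p = 0.0325), with no scaling (adjusted p = 0.0314) and in a fit of those genotypes alone (adjusted p = 0.0386). As a share of the summed Smarcd FPKM, Smarcd3 took 13.3% to 14.7% in WT, 11.5% to 14.9% in Het and 20.4% to 23.3% in KO, and Smarcd2 took 52.8% to 55.5%, 52.1% to 57.4% and 43.0% to 47.6%.

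The ARID subunits bind DNA and set the subtype of BAF. All 3 were higher in KO than in Het, and in Het against WT Arid1a rose and Arid2 fell. Arid1a, of canonical BAF, measured 11.3, 14.1, 12.6 and 15.1 FPKM in the WT libraries, 16.5, 16.6, 17.4 and 15.8 in the Het libraries and 19.7, 21.2 and 20.3 in the KO libraries. The genotypes formed 3 separate ranges in the order WT, Het, KO: Arid1a rose in Het (0.30, adjusted p = 0.0103) and in KO (0.59, adjusted p = 2.22e-04) against WT. The step from Het to KO was 0.29 (adjusted p = 0.0193) and was lost without Het 4 or KO 3 (adjusted p from 0.0507 to 0.0745) and with no scaling (adjusted p = 0.133). Its paralogue Arid1b rose in KO, with 3.93, 4.86, 4.28 and 5.36 FPKM in the WT libraries, 5.09, 5.47, 5.72 and 5.10 in the Het libraries and 6.70, 7.95 and 7.59 in the KO libraries. KO against WT differed by 0.59 (adjusted p = 5.22e-04) and KO against Het by 0.41 (adjusted p = 0.00579); Het against WT (0.18, adjusted p = 0.125) passed without WT 4 (adjusted p = 0.0364). Arid2, of the PBAF subtype, was lowest in Het, at 14.6, 14.4, 13.8 and 13.8 FPKM in the WT libraries, 11.7, 12.5, 12.2 and 11.4 in the Het libraries and 16.2, 16.5 and 14.7 in the KO libraries. It fell by 0.23 in Het against WT (adjusted p = 0.00746), and KO was 0.37 above Het (adjusted p = 5.13e-04). Every KO library was above every WT library, but KO against WT, a difference of 0.15, had an adjusted p of 0.0725 and passed without KO 4 (adjusted p = 0.0362). Arid1a took 37.9% to 44.0% of the summed ARID FPKM in WT, 47.9% to 49.6% in Het and 46.3% to 47.7% in KO.

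**Figure D4:**
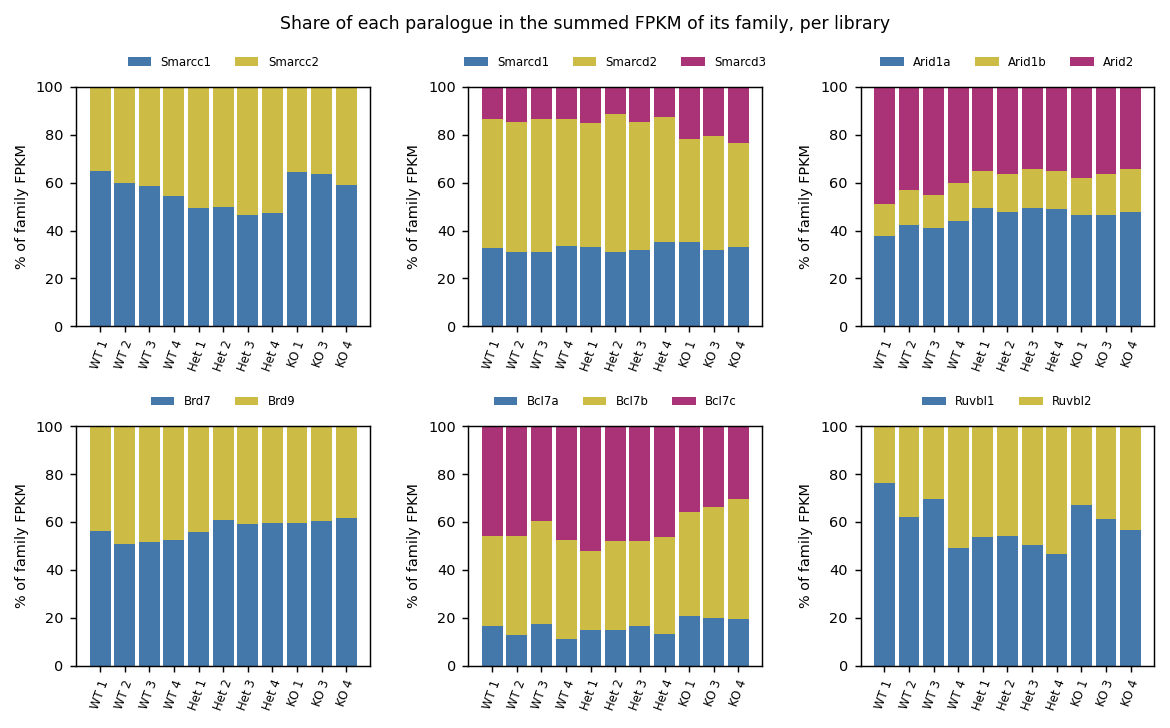
Bars stack the share of each paralogue, in percent of the summed FPKM of its family, for each of the 11 libraries grouped by genotype. The share of Smarcd3 is 20.4% to 23.3% in KO and at most 14.9% in WT and Het, and the share of Smarcc1 is at most 49.9% in Het and at least 54.5% in WT and KO.

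Several BAF subunits carry bromodomains, which read acetylated histones, or PHD fingers. Brd9, which defines non-canonical BAF, measured 38.1, 39.9, 41.6 and 36.0 FPKM in the WT libraries, 27.1, 23.5, 24.7 and 22.5 in the Het libraries and 23.6, 20.4 and 20.6 in the KO libraries. Every mutant library lay below every WT library. Brd9 fell by 0.82 in KO (95% interval -1.0 to -0.65, adjusted p = 1.10e-05) and by 0.65 in Het (95% interval -0.81 to -0.48, adjusted p = 4.64e-05), so that KO kept 55.4% and Het 62.9% of the WT mean. KO against Het differed by -0.18 (adjusted p = 0.10) and passed without KO 1 (adjusted p = 0.0476) and with no scaling (adjusted p = 0.0105).

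Pbrm1, the polybromo subunit that defines PBAF, measured 41.6, 36.8, 37.9 and 30.7 FPKM in the WT libraries, 32.4, 34.4, 31.6 and 29.6 in the Het libraries and 22.3, 22.5 and 19.5 in the KO libraries. KO libraries were all below the rest, with differences of -0.75 from WT (adjusted p = 1.01e-04) and -0.56 from Het (adjusted p = 8.09e-04). Het against WT, a difference of -0.19, missed the threshold (adjusted p = 0.121). It passed without WT 4 (adjusted p = 0.0112) and with the replicate number as a block (adjusted p = 0.0397). Brd7, also of PBAF, measured 49.1, 41.3, 44.6 and 39.6 FPKM in the WT libraries, 34.1, 36.6, 35.7 and 33.4 in the Het libraries and 34.5, 31.0 and 33.4 in the KO libraries. Mutant values were below WT values, with differences of -0.39 in KO (adjusted p = 0.00158) and -0.31 in Het (adjusted p = 0.00467), and KO against Het differed by -0.08 (adjusted p = 0.419), which passed with no scaling (adjusted p = 0.0401).

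Dpf2, the double PHD finger subunit of canonical BAF, measured 36.8, 41.6, 38.3 and 42.4 FPKM in the WT libraries, 27.5, 27.0, 26.4 and 27.2 in the Het libraries and 29.6, 32.1 and 27.9 in the KO libraries. It fell by 0.40 in KO (adjusted p = 5.07e-04) and by 0.54 in Het (adjusted p = 4.43e-05), with no overlap with WT. Dpf1, a neuronal relative, was low, at 2.39, 4.50, 2.23 and 3.39 FPKM in the WT libraries, 0.986, 1.43, 2.02 and 2.72 in the Het libraries and 2.67, 2.56 and 2.95 in the KO libraries. Its fall in Het against WT (-0.57, adjusted p = 0.0446) was lost without WT 2, WT 4, Het 1, Het 2, Het 3, KO 1, KO 3 or KO 4 (adjusted p from 0.0568 to 0.122), with no filter on low values (adjusted p = 0.103), with no scaling (adjusted p = 0.0521) and in a fit of those genotypes alone (adjusted p = 0.0757). Phf10, the PBAF counterpart of the Dpf proteins, differed from WT by -0.25 in KO (adjusted p = 0.0486) and -0.24 in Het (adjusted p = 0.0430). WT held 50.4 to 63.8 FPKM, Het 45.7 to 48.4 and KO 41.6 to 52.6, so KO overlapped WT. The call in KO was lost without WT 1, WT 3, Het 1, Het 2, Het 3, Het 4, KO 3 or KO 4 (adjusted p from 0.0612 to 0.209), with no filter on low values (adjusted p = 0.0871), with upper quartile scaling (adjusted p = 0.0511) and in a fit of those genotypes alone (adjusted p = 0.110), and that in Het without WT 1, WT 3, Het 1, Het 2, Het 3, Het 4 or KO 3 (adjusted p from 0.0591 to 0.110), with no filter on low values (adjusted p = 0.0791) and with upper quartile scaling (adjusted p = 0.0694). In KO against Het neither Dpf1 (adjusted p = 0.124) nor Phf10 (adjusted p = 0.956) passed; Dpf1 did without Het 4 (adjusted p = 0.0430).

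The remaining BAF subunits included the gene with the largest rise in KO. Bcl7a, a small accessory subunit, measured 2.67, 3.17, 3.93 and 3.58 FPKM in the WT libraries, 3.92, 3.61, 4.51 and 4.01 in the Het libraries and 5.97, 6.42 and 6.51 in the KO libraries. KO stood above both other genotypes, by 0.76 against WT (95% interval 0.53 to 0.99, adjusted p = 1.45e-04) and 0.54 against Het (adjusted p = 0.00152). Het against WT, 0.21, had an adjusted p of 0.0986 and passed without WT 3 (adjusted p = 0.0423). Bcl7b ranged over 6.16 to 13.2 FPKM in WT and 12.4 to 16.9 in KO, which overlap. Its rise of 0.57 against WT (adjusted p = 0.0415) was lost without WT 1, WT 2, WT 3, Het 1, Het 2, Het 3, KO 3 or KO 4 (adjusted p from 0.0508 to 0.143), with no filter on low values (adjusted p = 0.0903), with no scaling (adjusted p = 0.0953) and in a fit of those genotypes alone (adjusted p = 0.0777), and KO against Het (0.54, adjusted p = 0.0548) passed without WT 1, WT 4, Het 4 or KO 1 (adjusted p from 0.0112 to 0.0493) and in a fit of those genotypes alone (adjusted p = 0.0108). With the replicate number as a block, Bcl7b in KO against Het passed as well (adjusted p = 0.00749). Of the summed Bcl7 FPKM, Bcl7c took 39.4% to 47.6% in WT, 46.4% to 52.0% in Het and 30.4% to 35.9% in KO, where it was lowest. Bcl7c itself passed in no comparison, and Het against WT (0.30, adjusted p = 0.173) did without WT 4 (adjusted p = 0.00942), as did KO against Het in a fit of those genotypes alone (adjusted p = 0.0104).

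Ss18, a subunit shared by canonical and non-canonical BAF, measured 25.4, 25.4, 24.1 and 23.9 FPKM in the WT libraries, 29.3, 31.2, 29.5 and 30.4 in the Het libraries and 30.5, 30.8 and 30.7 in the KO libraries. Both mutant genotypes were above WT with no overlap, by 0.30 in KO (adjusted p = 4.18e-04) and 0.27 in Het (adjusted p = 5.72e-04). KO against Het differed by 0.03 (95% interval -0.08 to 0.13, adjusted p = 0.684). Smarce1, a core subunit with an HMG domain and the subunit with the most FPKM, measured 74.1, 67.5, 68.1 and 68.7 FPKM in the WT libraries, 79.6, 83.2, 76.9 and 78.6 in the Het libraries and 66.4, 65.6 and 62.7 in the KO libraries. Het alone was high, by 0.19 against WT (adjusted p = 0.00833), and KO was below Het by 0.29 (adjusted p = 9.77e-04). Every KO library was also below every WT library, but that difference (-0.10, adjusted p = 0.144) passed only with no scaling (adjusted p = 0.00335). Smarcb1, the other core subunit at high level, passed in no comparison, with a difference of 0.07 in KO against WT (95% interval -0.13 to 0.27) and means of 63.8 ± 8.36, 66.4 ± 1.27 and 66.5 ± 2.83 FPKM in WT, Het and KO (SD, n = 4, 4 and 3).

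Of the 11 INO80 subunits, none rose and 4 fell in KO against WT (36.4%, with 47.1% of all genes, 23.3% higher and 23.8% lower). The 4 were Actr8, Ino80, Ino80c and Ino80d. Ino80c, a small subunit of the catalytic core, measured 20.3, 18.3, 19.3 and 18.6 FPKM in the WT libraries, 16.9, 17.4, 15.9 and 15.9 in the Het libraries and 12.2, 12.1 and 13.5 in the KO libraries. The 3 genotypes were separate, and it fell by 0.57 in KO (adjusted p = 3.02e-05) and by 0.20 in Het (adjusted p = 0.0159) against WT. Ino80d, of the metazoan-specific part, measured 8.43, 7.99, 7.67 and 7.04 FPKM in the WT libraries, 9.94, 9.88, 10.2 and 9.26 in the Het libraries and 5.87, 5.98 and 5.97 in the KO libraries. Het was highest and KO lowest without overlap: it rose by 0.30 in Het (adjusted p = 0.00282) and fell by 0.34 in KO (adjusted p = 0.00208) against WT, and KO was below Het by 0.64 (adjusted p = 2.52e-05).

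In KO against Het, 6 INO80 subunits fell and 1 rose (63.6%, with 44.2% of all genes, 22.2% lower and 22.0% higher). The riser was Yy1, a DNA-binding partner of INO80, at 37.5, 33.1, 39.1 and 28.9 FPKM in the WT libraries, 29.9, 34.2, 29.0 and 31.2 in the Het libraries and 42.9, 41.3 and 39.8 in the KO libraries. KO was above every Het library, by 0.40 (adjusted p = 0.00617), while KO against WT (0.26, adjusted p = 0.0511) passed without WT 1, WT 3 or Het 2 (adjusted p from 0.0245 to 0.0495) and with a filter at 5 FPKM (adjusted p = 0.0492) and Het against WT (-0.15, adjusted p = 0.221) passed without WT 4 (adjusted p = 0.0257). Nfrkb, which binds and restrains the deubiquitinase Uchl5, fell by 0.24 against Het (adjusted p = 0.0346), a call lost without Het 1, Het 3, KO 1, KO 3 or KO 4 (adjusted p from 0.0541 to 0.119) and with no filter on low values (adjusted p = 0.0510). The same call was lost with the replicate number as a block (adjusted p = 0.0747). KO against WT (-0.15) passed with no scaling (adjusted p = 0.0322). Uchl5 itself, Mcrs1, Ino80b and Ino80e passed in no comparison. Mcrs1, an RNA- and protein-binding subunit, spanned 31.3 to 72.3 FPKM in WT, and its difference of -0.29 in Het (adjusted p = 0.308) passed without WT 1 (adjusted p = 0.0398). KO against Het (0.45) passed in a fit of those genotypes alone (adjusted p = 0.0202) and with the replicate number as a block (adjusted p = 0.0485). For Ino80e the difference of 0.16 in Het (adjusted p = 0.446) passed without WT 4 (adjusted p = 0.0410).

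Both subunits listed for SRCAP alone, Srcap and Actr6, fell in KO against WT and against Het, with the values given above. Of all genes, 23.8% and 22.2% fell in these comparisons. In Het against WT, limma called neither and neither had an unadjusted p under 0.05. Of the 8 TIP60 subunits, 1 rose and none fell in KO against WT (12.5%, with 47.1% of all genes), the riser being Ep400. Mbtd1, which reads methylated histone H4 and links TIP60 to chromatin, was highest in Het, at 10.0, 7.58, 8.49 and 7.78 FPKM in the WT libraries, 12.8, 16.1, 15.0 and 11.9 in the Het libraries and 9.48, 9.61 and 9.45 in the KO libraries. All Het libraries were above the rest, by 0.66 against WT (95% interval 0.43 to 0.89, adjusted p = 4.50e-04), and KO was below Het by 0.50 (adjusted p = 0.00377). KO against WT differed by 0.16 (adjusted p = 0.273).

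The acetyltransferase Kat5, the large scaffold Trrap, the scaffold proteins Epc1 and Epc2, the bromodomain protein Brd8 and the PHD finger protein Ing3 passed in no comparison. Kat5 had means of 27.1 ± 2.65, 25.9 ± 1.12 and 30.2 ± 2.66 FPKM in WT, Het and KO (SD, n = 4, 4 and 3), and KO against Het (0.21, adjusted p = 0.0648) passed without WT 1, WT 4 or KO 3 (adjusted p from 0.0314 to 0.0484) and in a fit of those genotypes alone (adjusted p = 0.0398). For Trrap the 95% interval of KO against WT was -0.40 to 0.09, and KO against Het (-0.21) passed in a fit of those genotypes alone (adjusted p = 0.0261). Epc1 in KO against Het (-0.16) passed without KO 1 (adjusted p = 0.0229) and with no scaling (adjusted p = 0.0138), Epc2 (0.23) without WT 4 or Het 2 (adjusted p from 0.0320 to 0.0482) and in a fit of those genotypes alone (adjusted p = 0.0396) and Brd8 (-0.22) without KO 1 (adjusted p = 0.00395) and with no scaling (adjusted p = 0.00770). Brd8 also passed in Het against WT (0.16) without KO 1 (adjusted p = 0.0407).

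Of the 3 subunits common to SRCAP and TIP60, 2 fell in KO against WT (66.7%, with 47.1% of all genes, 23.8% lower). Dmap1, a scaffold protein of the nucleosome-binding part, measured 18.3, 23.8, 20.3 and 20.8 FPKM in the WT libraries, 13.4, 13.6, 12.7 and 14.7 in the Het libraries and 16.9, 16.4 and 17.5 in the KO libraries. Het values were the lowest and WT the highest, without overlap. Dmap1 fell by 0.57 in Het (adjusted p = 1.53e-04) and by 0.28 in KO (adjusted p = 0.0185) against WT, and KO was 0.29 above Het (adjusted p = 0.0139). The call in KO against WT was lost without KO 1 or KO 3 (adjusted p from 0.0506 to 0.0679) and in a fit of those genotypes alone (adjusted p = 0.0506) and that in KO against Het without KO 4 (adjusted p = 0.0509) and with no scaling (adjusted p = 0.103). Yeats4, a reader of acylated histones, measured 32.5, 28.1, 31.6 and 30.1 FPKM in the WT libraries, 26.9, 29.1, 33.2 and 32.7 in the Het libraries and 23.6, 24.9 and 25.6 in the KO libraries. KO was lowest, with differences of -0.29 from WT (adjusted p = 0.0118) and -0.29 from Het (adjusted p = 0.0139), the second lost without KO 1 (adjusted p = 0.0538). Vps72, which binds H2A.Z, spanned 17.9 to 41.9 FPKM in WT and passed in no comparison.

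The ATPases Ruvbl1 and Ruvbl2 form a joint ring in INO80, SRCAP and TIP60, but their RNA did not run in parallel. Ruvbl1 measured 53.4, 50.5, 46.0 and 52.1 FPKM in the WT libraries, 33.8, 34.8, 35.0 and 34.7 in the Het libraries and 48.2, 45.3 and 47.4 in the KO libraries. Het alone was low, with a difference of -0.53 from WT (95% interval -0.65 to -0.41, adjusted p = 1.81e-05), and KO was 0.43 above Het (adjusted p = 1.24e-04). Ruvbl2 measured 16.5, 31.1, 20.1 and 53.9 FPKM in the WT libraries, 28.9, 29.3, 34.2 and 39.4 in the Het libraries and 23.8, 28.9 and 36.3 in the KO libraries and passed in no comparison. The WT libraries alone spanned the whole range of the Het and KO libraries. In KO against WT limma called neither ring subunit, and neither had an unadjusted p under 0.05, although Ruvbl1 passed without WT 3 (adjusted p = 0.0465) and with no scaling (adjusted p = 0.0124). Ruvbl2 in Het against WT (0.25, adjusted p = 0.544) passed without WT 4 (adjusted p = 0.0449).

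Because several subunits were lowest or highest in Het, Het was also tested against the midpoint of KO and WT, taken on the log2(FPKM + 1) scale. A difference from the midpoint does not by itself make Het the lowest or highest genotype. Smarcd3, called below the midpoint, missed the threshold in Het against WT (-0.21, adjusted p = 0.14, limma), and its ranges in Het and WT overlapped. Of the 49 subunits, 7 were above the midpoint and 11 below (36.7%, with 44.0% of all genes, 21.3% above and 22.8% below). The largest differences above it were those of Mbtd1 (0.58, adjusted p = 4.69e-04) and Ino80d (0.47, adjusted p = 6.65e-05). Ruvbl1 (-0.48, adjusted p = 1.58e-05), Smarcc1 (-0.46, adjusted p = 1.14e-04) and Smarcd3 (-0.46, adjusted p = 0.00264) were below it. Dpf1 was below as well (-0.51, adjusted p = 0.0427), a call lost without WT 2, WT 4, Het 1, Het 2, Het 3, KO 1, KO 3 or KO 4 (adjusted p from 0.0567 to 0.140), with no filter on low values (adjusted p = 0.10) and with no scaling (adjusted p = 0.0655). By the order of their means, 14 of the 49 subunits had KO lowest and Het highest, 10 ran from KO up to WT through Het, and 6 ran from WT up to KO through Het. In 18 Het was lowest, 9 of them with WT highest and 9 with KO highest, and in 1 WT was lowest and Het highest. These orders are of means, and neighbours whose comparison missed the threshold were not told apart beyond their spread.

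The WT libraries were more variable than the others for these genes. The median coefficient of variation over the 49 subunits was 11% in WT, 5.96% in Het and 6.96% in KO. WT 1 was the lowest WT library for 22 subunits and the highest for 19, and WT 4 the lowest for 14 and the highest for 19. Ruvbl2, Mcrs1 and Vps72 all ran in the order WT 1, WT 3, WT 2, WT 4 from low to high. In Het and in KO these genes rose with the replicate number as well. Ruvbl2 went from 28.9 FPKM in Het 1 to 39.4 in Het 4, and from 23.8 in KO 1 to 36.3 in KO 4. What a replicate number marks was not given in the sources used here. Subunits that overlap another expressed locus may share reads with it. Among them are Smarcd1 with Gm17241, Brd8 with Kif20a, Ino80e with Hirip3 and Ruvbl2 with Gys1, which passed in no comparison. Called subunits overlap such loci too, as Phf10 does with Gm34975. For Ino80d it is Rps27-ps1 (means of 6.76, 7.72 and 6.17 FPKM in WT, Het and KO). For Pbrm1 it is LOC105245714 (2.21, 1.72 and 1.5), and for Srcap it is Snora30 (5.4, 0 and 9.53). The part of these loci in the calls was not tested.

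Other proteins of the same pathway gave a mixed picture. Of 11 further subunits of the 4 complexes, 9 were tested; 1 rose and 2 fell in KO against WT (33.3%, with 47.1% of all genes). Morf4l1, a chromodomain subunit of TIP60, fell by 0.38 in KO (adjusted p = 0.00869) and by 0.58 in Het (adjusted p = 4.29e-04), from 146 ± 18.3 FPKM in WT (SD, n = 4). Morf4l2, its paralogue, fell by 0.25 in KO (adjusted p = 0.0100). In Het against WT, Meaf6, another TIP60 subunit, fell by 0.36 (adjusted p = 0.00652) and Ss18l1, a neuronal relative of Ss18, rose by 0.27 (adjusted p = 0.0238). In KO against Het, Tfpt of INO80 was lower (-0.48, adjusted p = 0.0328) and Meaf6 higher (0.37, adjusted p = 0.00792). The riser in KO against WT was Gltscr1l, a subunit of non-canonical BAF (0.31, adjusted p = 0.0453).

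The substrate of SRCAP and TIP60 changed as well. H2afz, the main gene of H2A.Z, measured 384, 365, 383 and 414 FPKM in the WT libraries, 261, 248, 245 and 274 in the Het libraries and 292, 306 and 304 in the KO libraries. WT was above both mutant genotypes, by 0.36 over KO and 0.59 over Het on the log2 scale (differences of -0.36, adjusted p = 5.82e-04, and -0.59, adjusted p = 1.29e-05). H2afv, the second H2A.Z gene, moved the other way, with 19.3, 21.9, 19.8 and 23.0 FPKM in the WT libraries, 30.4, 28.3, 31.5 and 28.9 in the Het libraries and 34.0, 29.9 and 32.3 in the KO libraries. It rose by 0.59 in KO (adjusted p = 7.75e-05) and 0.49 in Het (adjusted p = 2.21e-04). Anp32e, the chaperone that removes H2A.Z, fell by 0.54 in KO (adjusted p = 8.48e-05) and by 0.53 in Het (adjusted p = 6.31e-05) from 116 ± 6.81 FPKM in WT (SD, n = 4).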

How the data were processed

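RNA was measured in 11 libraries (4 WT, 4 Het, 3 KO). Per the submitters' processing notes, the authors used TopHat2 2.1.0, Cufflinks 2.2.1 and Cuffdiff with GRCm38.p4, and deposited FPKM per locus for each library. Whether counting used strand was not given in the sources used here. FPKM were summed per symbol (1766 of 46469 symbols have several loci; none of the 51 subunits does) and divided by a size factor per library (median of ratios, 13981 genes, factors of 0.937 to 1.04). Genes with at least 1 FPKM in 3 or more libraries (14948) were tested with limma 3.58.1 (R 4.3.3) on log2(FPKM + 1), with 1 mean per genotype, all 11 libraries, a variance trend and Benjamini-Hochberg adjustment over all genes (threshold 0.05). The script was tested on simulated data for KO against WT. It recovered 46 of 67 changes of 1.5-fold (68.7%), 86.6% of those of 2-fold and 95.5% of those of 4-fold. There were 10 false calls over 14948 genes. Changes below 1.5-fold were not simulated, so a missed threshold does not show that a subunit was unchanged. The subunits and the comparison lists were chosen with earlier results of these data known, so their counts are descriptions. Named with values are the catalytic subunits, actin-related proteins and paralogue families, and up to 6 called subunits per direction and comparison (3 in other lists) by size of difference; the rest have fewer values. FPKM keep no counts, so no count model was used and depth is known only relative to WT 1. Alternatives were a pseudocount of 0.1, other filters and scalings, the main locus alone, a replicate block, only the genotypes compared, and each library left out.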

Additional observations from a re-analysis of the deposited data

Results flagged for a closer look

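In the 4 Het libraries, a sample lay far from the other 3 for 2 subunits. Phf10 was 45.7 FPKM in Het 3 and 47.9 to 48.4 in the others, a gap of 0.838 of the whole range (Dixon's test). Nfrkb was 9.0 FPKM in Het 1 and 7.71 to 7.81 in the others, a gap of 0.922 of the range. This was looked at in 100 groups of 4 libraries, and chance marks about 1 in 20 of them.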

How the results depend on the processing

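No subunit reversed direction after passing under any of the 19 alternatives. Of the 24 subunits called in KO against WT, 19 kept their call when each library was left out in turn, as did 15 of 18 in Het against WT, 18 of 24 in KO against Het and 14 of 18 against the midpoint. With each library left out, the INO80, SRCAP and TIP60 subunits called as higher ranged from 1 to 2 in KO against WT, from 2 to 4 in Het against WT and from 3 to 6 against the midpoint. Other counts that moved by more than 1.5 times concern these subunits and BAF. In KO against WT, a filter at 5 FPKM gave 2 INO80, SRCAP and TIP60 subunits higher (1 in the report), and a fit on those genotypes alone gave 5 lower (8 in the report). In KO against Het, that fit gave 7 higher (4 in the report), and no scaling gave 7 BAF subunits lower (4 in the report). No scaling also put 9 INO80, SRCAP and TIP60 subunits above the midpoint (3 in the report). Without scaling, 37.1% of all calls in KO against WT were higher (49.4% with scaling), 36.5% in KO against Het (49.8%); the cause was not tested. Same-numbered libraries deviated together in part. Their correlations ran from -0.101 to 0.352, with 5 of 10 pairs over 0.1, all of these of number 1 or 4. Pairs of different numbers ran from -0.398 to 0.18, with 5 of 30 over 0.1. Of the 11 libraries, 6 correlated best with their own number. With the replicate number as a block, 6 BAF subunits were higher and 10 lower in KO against WT (6 and 9 without it). The standard error of KO against WT was largest for Ruvbl2 (0.33), Actr5 (0.25), Vps72 (0.25) and Mcrs1 (0.24), of which Actr5 alone has few FPKM; how far depth limits the others was not tested.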

Other observations

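Some remodellers that hold no actin subunit changed as well. Of 25 genes of the CHD, ISWI and NuRD families, 24 were tested. In KO against WT 3 rose and 6 fell (37.5%, with 47.1% of all genes). In Het against WT 5 rose and 6 fell (45.8%, with 43.8% of all genes). Chd8, a CHD remodeller, measured 26.5, 25.4, 24.4 and 24.2 FPKM in the WT libraries, 20.3, 20.6, 21.7 and 19.9 in the Het libraries and 14.4, 13.7 and 12.3 in the KO libraries, with differences from WT of -0.86 in KO (adjusted p = 1.48e-06, limma) and -0.28 in Het (adjusted p = 0.00346). Its 3 genotypes did not overlap. Smarca1, an ISWI ATPase, was low, at 2.49, 1.20, 1.94 and 1.70 FPKM in the WT libraries, 4.31, 3.50, 4.14 and 3.56 in the Het libraries and 0.650, 0.752 and 0.428 in the KO libraries: Het was highest and KO lowest, and KO against Het differed by -1.60 (adjusted p = 7.85e-06). Chd2, another CHD remodeller, rose by 0.65 in Het (adjusted p = 3.26e-05) and by 0.24 in KO (adjusted p = 0.0237) against WT. Hdac1, a deacetylase of NuRD, fell by 0.50 in KO (adjusted p = 4.12e-05) and by 0.53 in Het (adjusted p = 2.11e-05), from 125 ± 8.18 FPKM in WT (SD, n = 4). Mta1, another NuRD subunit, rose by 0.56 in KO (adjusted p = 0.0235), from 26.5 ± 7.04 FPKM in WT to 38.7 ± 5.08 in KO (SD, n = 3).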
